A study of Homo sapiens with 8 samples.

Results

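JAG1 and 7 further genes of the Notch pathway (JAG2, NOTCH1, NOTCH2, NOTCH3, HES1, HEY1 and RBPJ) were followed in HepG2 cells, a human liver cancer line. The 8 genes were taken by symbol from a table of 60230 genes. JAG1 was chosen by its own readout, as a leading gene raised by all 3 compounds, so its changes against DMSO are described without a test, whereas the other 7 genes were taken for their place in the pathway. Every sample came from HepG2 cells that overexpressed cytochrome P450 2C19 and were kept under blasticidin. The cells received either DMSO as the solvent control or 1 of 3 plastic antioxidants, each at its own IC50. These were compound 4 (named metylcresol in the labels), compound 5 (tetrabut) and compound 6 (cyclohexil). The paper calls their IC50 values rather comparable, so the concentrations were similar but not identical. Each of the 4 groups had 2 samples, named day 1 and day 2 in the labels. The labels give the day as a time, whereas the study's methods give 1 incubation time for all groups and 2 replicates per group. Days 1 and 2 were therefore read as replicates 1 and 2, each a shared day of the experiment. If the day were a time of exposure, the 2 samples would not be replicates. No source used here says more on whether they were separate cultures, so that p-values measure the spread between these samples only. Compounds 4–6 are bisphenols whose phenol rings are joined through a bridging carbon. Compounds 4 and 6 share a methylene bridge and ring methyl groups and differ in carrying tert-butyl or cyclohexyl groups, respectively, whereas compound 5 has an ethylidene bridge and tert-butyl groups only.

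Notch signaling works between touching cells. A ligand of the Jagged or Delta-like family on one cell binds a Notch receptor on its neighbor, ADAM proteases and gamma-secretase then cut the receptor, and the freed intracellular part joins the DNA-binding protein RBPJ and Mastermind coactivators to turn on HES and HEY genes, which encode transcriptional repressors. In the liver, JAG1 is known for its part in bile duct formation, and its loss on one allele is the main genetic cause of Alagille syndrome.

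On GRCh38 (GENCODE 29), JAG1 (ENSG00000101384) lies on the minus strand at chr20:10637684-10673999 and HES1 (ENSG00000114315) on the plus strand at chr3:194136145-194138732. NOTCH1 is at chr9:136494433-136545786, NOTCH2 at chr1:119911553-120069626, NOTCH3 at chr19:15159038-15200981, JAG2 at chr14:105140981-105168824 and RBPJ at chr4:26163455-26435131. An antisense gene, AL050403.2, overlaps JAG1 and had 0 to 2 counts per library. NOTCH2 shares long stretches of sequence with its NOTCH2NL copies, so its estimates are uncertain. The 250 bases before the transcription start of the ligand and of the target that passed the test are shown because they are the members the results turn on. The RefSeq windows on GRCh38.p14 are chr3:194135898-194136147 (plus strand) for HES1 and chr20:10674000-10674249 (minus strand) for JAG1, with matches to the RBPJ motif TGGGAA in capitals.
HES1: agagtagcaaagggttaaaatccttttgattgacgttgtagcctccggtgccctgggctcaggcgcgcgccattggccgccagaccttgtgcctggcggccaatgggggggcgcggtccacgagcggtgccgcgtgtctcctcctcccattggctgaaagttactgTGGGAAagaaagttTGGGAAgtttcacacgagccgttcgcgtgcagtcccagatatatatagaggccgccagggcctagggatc
JAG1: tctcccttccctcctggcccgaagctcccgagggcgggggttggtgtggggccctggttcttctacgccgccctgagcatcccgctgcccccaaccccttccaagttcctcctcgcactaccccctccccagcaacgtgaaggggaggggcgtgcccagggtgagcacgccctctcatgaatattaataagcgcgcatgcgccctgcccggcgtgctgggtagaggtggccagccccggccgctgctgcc
The HES1 window had TGGGAA on its own strand at 84 and at 70 bases before the start. The JAG1 window had neither this motif nor TGANTCA, the AP-1 motif, on either strand within the 250 bases shown. No matches of the 2 motifs overlapped in the windows of these genes. Of 35116 RefSeq promoter windows, 20.8% had TGGGAA at least once, 2.90% had it at least 2 times and 6.57% had TGANTCA. A match describes the letters only. Windows were used for 7 of the 8 genes and not for HEY1. Apart from HES1, RBPJ was the only one of the 7 with a match in any of its windows.

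The total count per library was between 9791659 and 17814595. Mean chi-square values of 8.20 to 19.1 per gene between the replicates of a group show that no pair agreed within counting noise. Hepatocyte markers were abundant, with ALB at 14369 to 20660 CPM (counts scaled by library size and TMM factor), and no line lacking the CYP2C19 transgene was among the samples. CYP2C19 was read at 27.7 and 16.4 CPM in DMSO, 31.4 and 44.3 with compound 4, 52.8 and 37.96 with compound 5, and 23.9 and 21.2 with compound 6, so it was above both controls with compounds 4 and 5 and overlapped them with compound 6. Such a separation held for 30.4% and 31% of all 13400 genes tested with compounds 4 and 5, and no test of CYP2C19 is reported here. The summed CPM of the 8 hepatocyte markers was 41912 to 44147 in DMSO, 28021 to 36810 with compound 4, 35429 to 36104 with compound 5 and 29570 to 33824 with compound 6. The 6 endothelial markers summed to at most 2.08 CPM in any library, with KDR, TEK and ERG at no more than 3 counts. The 8 bile duct markers, of which KRT7, CFTR and SCTR had at most 3 counts, summed to 963 to 1247 CPM in DMSO, 1259 to 1821 with compound 4, 1008 to 1258 with compound 5 and 1292 to 1568 with compound 6. Of the 6 stromal markers, COL1A1, COL1A2, DCN and LUM had at most 3 counts, and the list summed to 17.6 to 23.4 CPM in DMSO, 34.2 to 34.3 with compound 4, 15.0 to 17.3 with compound 5 and 22.5 to 26.9 with compound 6. Of the 6 immune markers, PTPRC and CD3E had at most 3 counts, while LYZ was read at 1380 to 2164 CPM, and the summed CPM was 1859 to 2194 in DMSO, 1423 to 1874 with compound 4, 1625 to 1783 with compound 5 and 1604 to 1899 with compound 6. The part of these shifts in the results was not tested. In bulk RNA, fewer cells that express a gene and less RNA per cell cannot be told apart.

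JAG1, the only canonical ligand expressed at a level that could be tested, was 3.52 to 5.38 times as high in the treated cells as in the DMSO controls. It was read at 183 and 156 CPM in the DMSO libraries of replicates 1 and 2. With compound 4 the values were 469 and 795 CPM, with compound 5 they were 1127 and 698 CPM, and with compound 6 they were 431 and 762 CPM. All 6 treated libraries were thus above both controls, while the 3 compounds overlapped each other. For each compound taken alone, both libraries were above both controls in 30.4%, 31% and 29.3% of all 13400 genes tested with compounds 4, 5 and 6. The share of genes with all 6 treated libraries on one side of both controls was not computed. This limit also applies to HES1, FURIN and DTX4 below. The fitted log2-fold changes were 1.90 ± 0.33 (SE, n = 2 per group) for compound 4, 2.43 ± 0.33 for compound 5 and 1.82 ± 0.33 for compound 6, or 3.73-fold, 5.38-fold and 3.52-fold. These 3 comparisons share the DMSO libraries. Since JAG1 was selected on these changes, no p-value is given for them.

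The spread between the days was large and did not run one way. Relative to the DMSO library of the same day, JAG1 on day 1 was 2.56-fold higher with compound 4, 6.15-fold with compound 5 and 2.35-fold with compound 6. On day 2 the respective ratios were 5.10, 4.48 and 4.89. Compounds 4 and 6 thus had their higher ratio on day 2 and compound 5 on day 1. Leaving out 1 library at a time gave log2-fold changes of 1.47 to 2.22 for compound 4, 2.03 to 2.74 for compound 5 and 1.35 to 2.16 for compound 6. The lowest and the highest value came from leaving out the replicates of the compound itself. Without its replicate 2, the log2-fold change was 1.47 for compound 4 and 1.35 for compound 6, and without its replicate 1 it was 2.03 for compound 5.

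**Figure D1:**
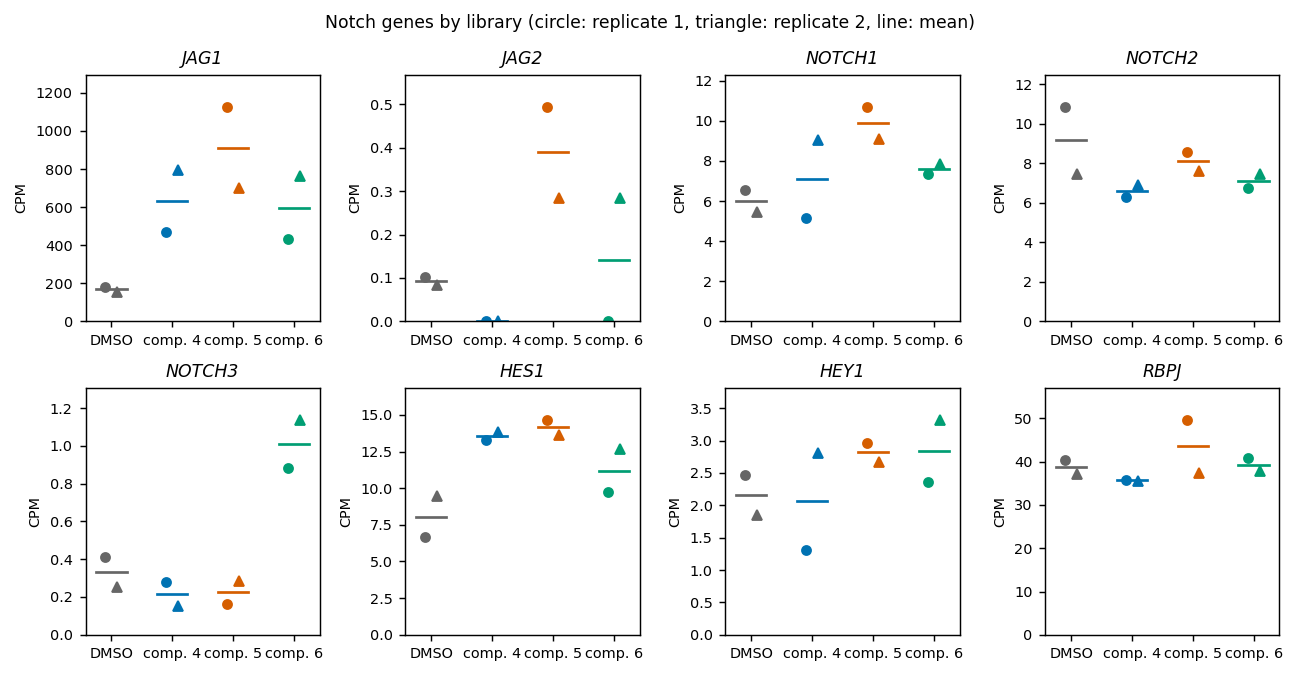
Level of each of the 8 genes in every library, in CPM on a linear axis from 0 that differs between panels, with circles for replicate 1, triangles for replicate 2 and lines for the mean of each group (comp. 4–6, compounds 4–6). JAG1 was between 431 and 1127 CPM in the treated libraries and 156 and 183 CPM in DMSO, and JAG2 and NOTCH3 were close to 0.

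By mean CPM, JAG1 was at rank 959 of the 13400 genes tested in the DMSO cells, at rank 185 with compound 4, at rank 130 with compound 5 and at rank 193 with compound 6. From low to high, the order of the means was DMSO, compound 6, compound 4 and compound 5, at 170 ± 19.3 CPM (SD, n = 2), 597 ± 235 CPM, 632 ± 231 CPM and 913 ± 303 CPM. Compounds 6 and 4 differed by less than the SD of either, and the libraries of compound 5 overlapped those of both.

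The other canonical ligands were almost unread. JAG2, the second Jagged ligand, had 1 and 1 counts in DMSO, 0 and 0 with compound 4, 6 and 5 with compound 5, and 0 and 3 with compound 6. It did not pass the filter on low counts and was not tested, and a count of 0 allows up to 3 counts. The Delta-like ligands DLL1, DLL3 and DLL4 had 0 to 11 counts per library and were not tested either. JAG1 made up 99.1% of the counts of the 5 canonical ligands in DMSO replicate 1 (95% Wilson interval 98.6 to 99.5) and 99.9% in compound 5 replicate 1 (99.88 to 99.97), the lowest and the highest share among the 8 libraries. These intervals cover counting error only.

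The receptors were far lower than the ligand and none of their changes passed the test. Per kilobase of the longest coding transcript, the level in DMSO was 28.5 ± 3.25 CPM for JAG1 (SD, n = 2), against 0.645 ± 0.0848 for NOTCH1 and 0.804 ± 0.212 for NOTCH2, whose spreads overlap. With compound 5 the values were 154 ± 51.1 for JAG1, 1.06 ± 0.121 for NOTCH1 and 0.711 ± 0.0581 for NOTCH2. The transcript lengths that Salmon used were not at hand, so these levels per kilobase assume the longest form. NOTCH1 was read at 6.56 and 5.44 CPM in DMSO, 5.16 and 9.05 with compound 4, 10.7 and 9.10 with compound 5, and 7.36 and 7.86 with compound 6. Both libraries of compounds 5 and 6 were above both controls, whereas compound 4 overlapped them. The log2-fold changes were 0.26 ± 0.27 (edgeR adjusted p = 0.58), 0.72 ± 0.26 (adjusted p = 0.11) and 0.35 ± 0.27 (adjusted p = 0.53) for compounds 4, 5 and 6.

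NOTCH2 was read at 10.9 and 7.45 CPM in DMSO, 6.29 and 6.92 with compound 4, 8.56 and 7.63 with compound 5, and 6.77 and 7.48 with compound 6. Only with compound 4 were both libraries below both controls, and the log2-fold changes were −0.46 ± 0.22 (edgeR adjusted p = 0.21), −0.17 ± 0.21 (adjusted p = 0.62) and −0.35 ± 0.22 (adjusted p = 0.42). NOTCH3 had 4 and 3 counts in DMSO, 3 and 2 with compound 4, 2 and 5 with compound 5, and 9 and 12 with compound 6. Its compound 6 libraries were the highest of the 8, but the gene did not pass the filter and was not tested. NOTCH4 had 0 to 9 counts and was not tested.

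Among the target genes, HES1, a repressor that Notch is known to turn on in many cell types, rose with compound 5 and was higher in every treated library than in the controls. It was read at 6.66 and 9.46 CPM in DMSO, 13.3 and 13.8 with compound 4, 14.7 and 13.7 with compound 5, and 9.71 and 12.7 with compound 6. The compound 4 and compound 5 libraries were well apart from the controls, whereas compound 6 replicate 1 exceeded DMSO replicate 2 by only a small margin. With compound 5 HES1 rose by 0.80 ± 0.20 on the log2 scale, or 1.74-fold (edgeR adjusted p = 0.043), where 8.3% of all genes tested passed. For compound 4 the log2-fold change was 0.74 ± 0.21, and the edgeR adjusted p of 0.052 missed the threshold of 0.05 without a replicate block. It passed with the block (0.038). Without the block, it also passed with no filter on low counts (0.0076) and with at least 10 counts in every sample (0.045). For compound 6 the log2-fold change was 0.47 ± 0.21 (adjusted p = 0.27). Whether the compounds differ in this respect is given with the comparisons between them.

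The call for HES1 with compound 5 was near the threshold. It was lost with DESeq2 (adjusted p = 0.052), in a fit of only the 4 samples compared (adjusted p = 0.068) and on leaving out any 1 library except compound 6 replicate 2 (adjusted p between 0.051 and 0.21). The log2-fold change for compound 5 was 0.57 without DMSO replicate 1 and 1.09 without DMSO replicate 2, with the controls at 6.66 and 9.46 CPM. On day 1 HES1 was 2.00-fold, 2.20-fold and 1.46-fold the DMSO library with compounds 4, 5 and 6, and on day 2 it was 1.46-fold, 1.44-fold and 1.34-fold.

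**Figure D2:**
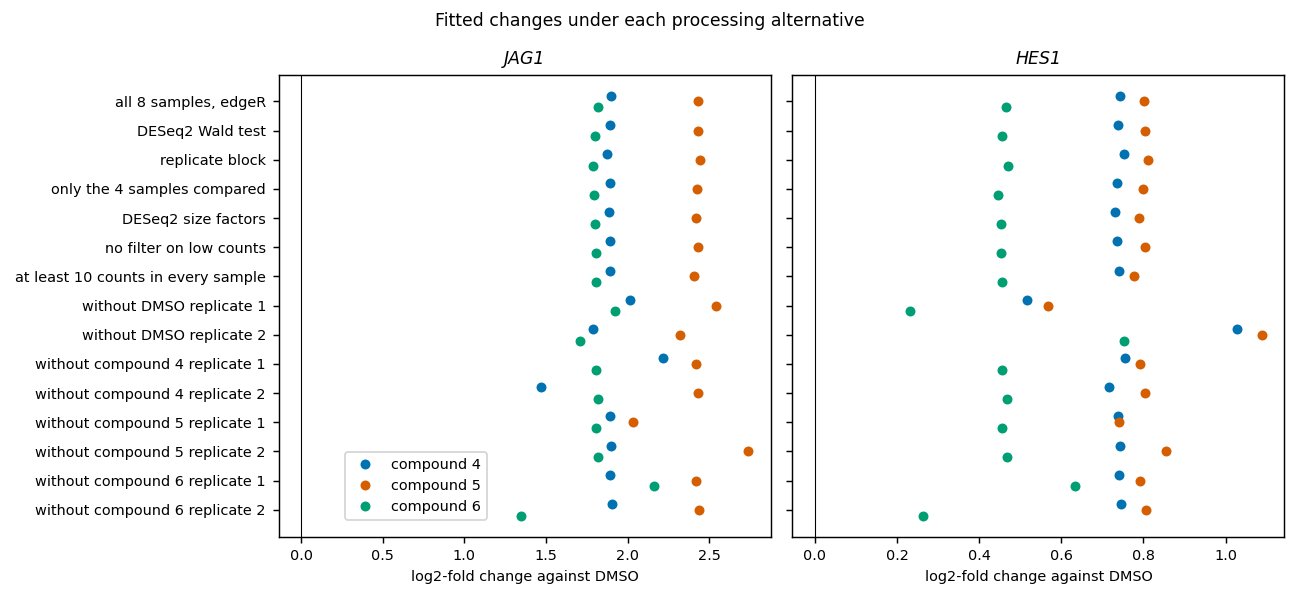
Log2-fold change against DMSO of JAG1 (left) and HES1 (right) in the fit of all 8 samples and under each of 14 alternatives (rows), with 1 point per compound. The points of both genes stayed above 0 throughout, and they moved most when a library of the compound itself or of DMSO was left out.

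HEY1 (ENSG00000164683), another target, was low throughout, at 2.46 and 1.84 CPM in DMSO, 1.31 and 2.81 with compound 4, 2.96 and 2.67 with compound 5, and 2.35 and 3.32 with compound 6. Only the compound 5 libraries were both above the controls. The log2-fold changes of −0.03 ± 0.41, 0.39 ± 0.40 and 0.41 ± 0.41 did not pass the test (edgeR adjusted p = 0.98, 0.54 and 0.63). Its 14 to 47 counts per library limit what could be detected. Of the 10 targets on the wider list, HES4 and HES6 were also tested, and HES6 had the lowest changes, at −0.51 ± 0.21, −0.27 ± 0.20 and −0.39 ± 0.21 (adjusted p = 0.15, 0.40 and 0.34). It passed with compound 4 without either compound 5 library (0.027 and 0.028), in the fit of only the 4 samples compared (0.040) and without a filter (0.020), and with compound 5 without compound 5 replicate 2 (−0.68, 0.023). HES2, HES5, HES7, HEY2, HEYL and NRARP were too low to be tested.

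RBPJ, the DNA-binding partner of the cut receptor, was nearly level. It was read at 40.5 and 37.2 CPM in DMSO, 35.7 and 35.6 with compound 4, 49.6 and 37.4 with compound 5, and 40.8 and 37.9 with compound 6. The compound 4 libraries were both below the controls by little, and compound 5 replicate 1 stood above all other libraries. The log2-fold changes were −0.12 ± 0.15, 0.16 ± 0.15 and 0.02 ± 0.15 (edgeR adjusted p = 0.64, 0.49 and 0.96). In DMSO the level of RBPJ per kilobase was 6.48 ± 0.390 CPM (SD, n = 2), that of HES1 5.11 ± 1.26 and that of HEY1 0.937 ± 0.190, all below JAG1. Both RBPJ values lay above both HES1 values on this scale, with a difference in means above either SD.

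Over the 5 tested members other than JAG1, 0, 1 and 0 passed the threshold with compounds 4, 5 and 6 by edgeR, and 1, 2 and 0 had an unadjusted p under 0.05. With DESeq2 0 passed. Over all 13400 genes tested, 9.51% passed with compound 4, 8.3% with compound 5 and 0.575% with compound 6. Of these 13400 genes, 3688, 3811 and 2490 had an unadjusted p under 0.05 by edgeR. Both treated libraries were above both controls for 1, 3 and 2 of the 5 genes, which can be read against the 30.4%, 31% and 29.3% above, and both were below for 2, 0 and 0 of them, against 28%, 28.5% and 26%. With 2 samples against 2, an exact permutation test cannot give a p below 0.333, so none was run.

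The wider pathway was described with a list of 78 genes, of which 53 were tested. Without JAG1, 4 of 52 passed with compound 4, 3 of 52 with compound 5 and 0 of 52 with compound 6 by edgeR. Of the 52 genes, 8, 13 and 7 had an unadjusted p under 0.05, as did 3688, 3811 and 2490 of all 13400 genes tested. With DESeq2 compound 6 had 1, FURIN. In these fits, with the filter on low counts in edgeR, the shares were no higher than those over all genes tested. With compound 4, 3 genes rose and DTX4 fell, and with compound 5 all 3 rose. The median log2-fold changes of the 52 genes were 0.06, 0.08 and 0.04, against 0.01, 0.00 and 0.02 over all genes tested. Both treated libraries were above the controls for 17, 20 and 13 of the 52 genes and below them for 12, 7 and 10. Over all genes tested, the shares were 30.4%, 31% and 29.3% above and 28%, 28.5% and 26% below.

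**Figure D3:**
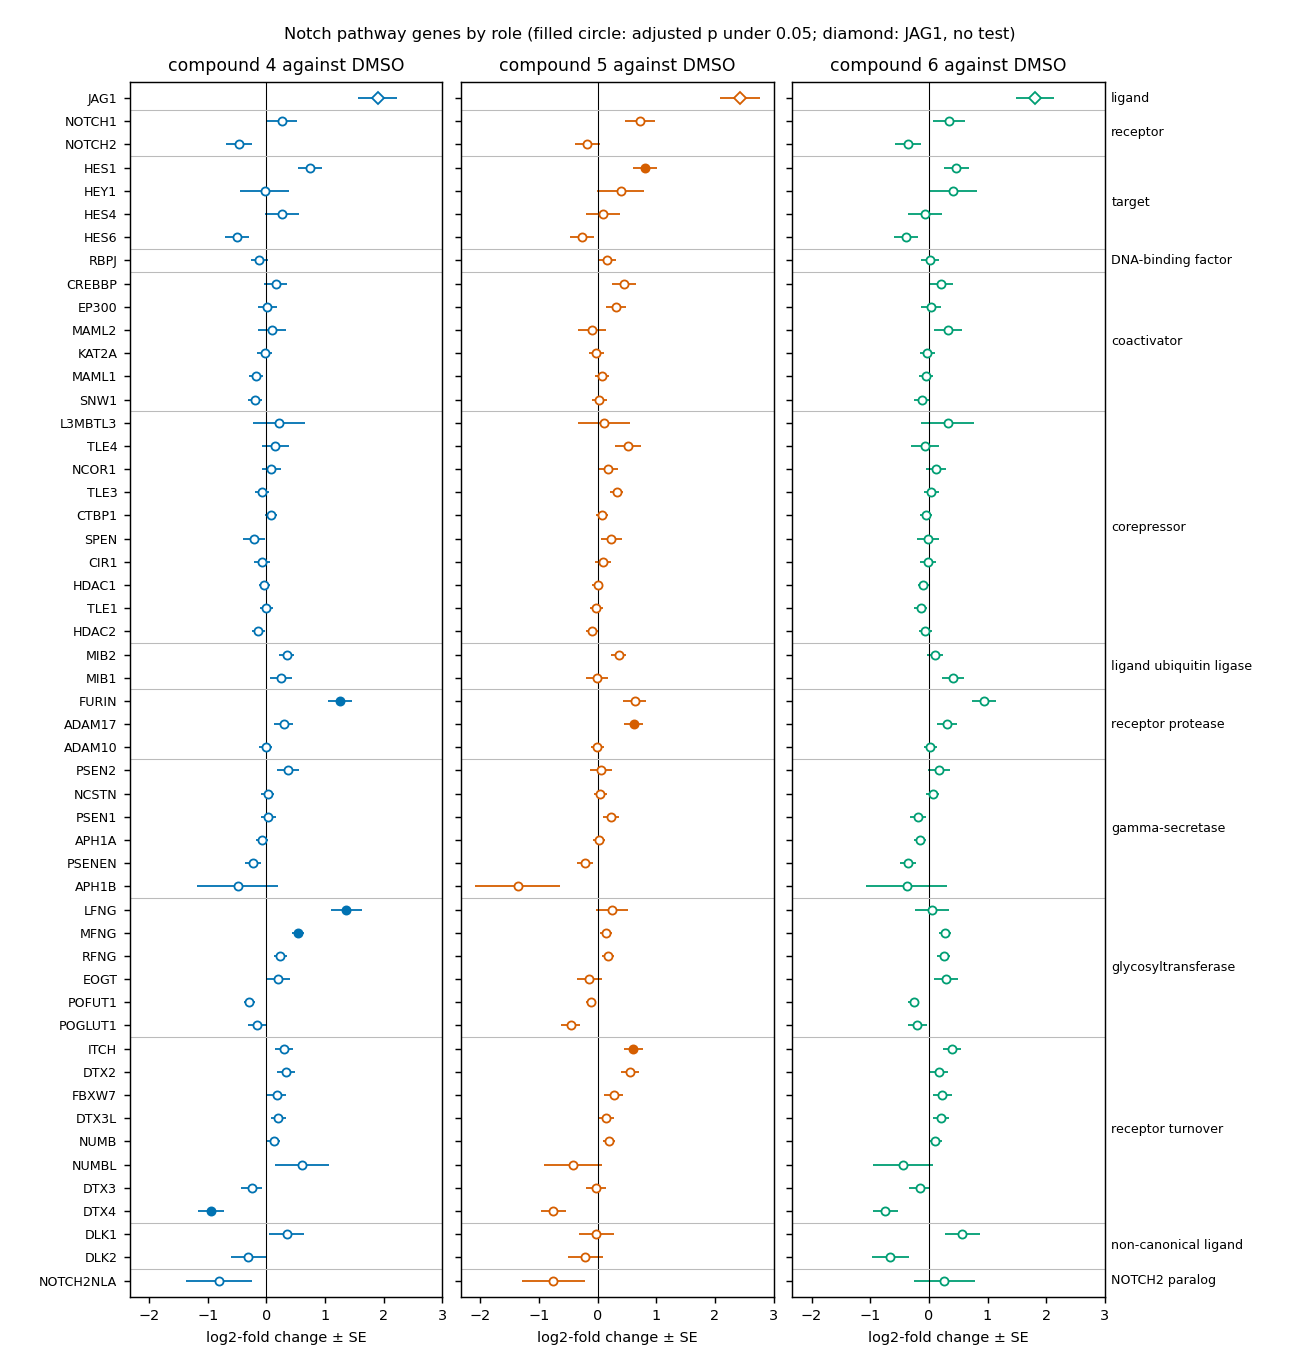
Log2-fold change against DMSO ± SE (n = 2 per group) of 52 of the 53 tested genes of the pathway list, grouped by role, with 1 panel per compound and filled circles for an adjusted p under 0.05. JAG1 stands at 1.82 to 2.43, most other genes lie close to 0, and the filled circles are FURIN, LFNG, MFNG and DTX4 with compound 4 and HES1, ADAM17 and ITCH with compound 5.

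Of the proteases that cut the receptor, FURIN, which cleaves the newly made receptor on its way to the surface, rose with compound 4. It was read at 61.7 and 55.1 CPM in DMSO, 118 and 160 with compound 4, 101 and 80.1 with compound 5, and 93.3 and 131 with compound 6. All treated libraries were above the controls. The log2-fold change with compound 4 was 1.25 ± 0.20 (edgeR adjusted p = 0.0082), and it was 0.63 ± 0.20 with compound 5 (adjusted p = 0.078) and 0.94 ± 0.20 with compound 6 (adjusted p = 0.059). The call with compound 4 was lost without DMSO replicate 2 (adjusted p = 0.10) and without compound 4 replicate 2 (0.063). With DESeq2 FURIN also passed with compound 5 (adjusted p = 0.017) and compound 6 (adjusted p = 0.00028). The same held by edgeR in the fit of only the 4 samples compared (0.049 and 0.012). With at least 10 counts in every sample it passed with compound 6 (0.044).

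ADAM17, a protease that can cut Notch at the surface, rose with compound 5, from 47.1 and 45.6 CPM in DMSO to 80.9 and 61.6 CPM, by 0.62 ± 0.16 on the log2 scale (edgeR adjusted p = 0.047, or 0.051 with the replicate block). With compound 4 it was at 50.7 and 62.9 CPM and with compound 6 at 52.8 and 61.96 CPM. Without compound 5 replicate 1 the log2-fold change was 0.40 and the adjusted p was 0.26, and the call was also lost without either DMSO or either compound 6 library (adjusted p between 0.061 and 0.22) and in the fit of only the 4 samples compared (0.061). IAH1 overlaps ADAM17 on the opposite strand and had 135 to 261 counts per library. ADAM10, the main protease of this step, was at 198 and 183 CPM in DMSO, and its log2-fold changes were −0.01 ± 0.11, −0.01 ± 0.11 and 0.02 ± 0.11. Of the 6 gamma-secretase genes 0 passed by edgeR, and 1 had an unadjusted p under 0.05, with compound 6, as did 2490 of all 13400 genes tested. PSEN2 had the highest mean change in this group, at 0.37, 0.06 and 0.17, and APH1B the lowest, at −0.49, −1.36 and −0.38, with only 4 to 17 counts per library.

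Of the glycosyltransferases that put sugars on the receptor, LFNG and MFNG, 2 of the 3 Fringe enzymes, rose with compound 4. LFNG went from 2.77 and 3.60 CPM in DMSO to 7.51 and 8.97 with compound 4, and was at 4.03 and 3.59 with compound 5 and 2.65 and 3.98 with compound 6. The compound 4 libraries stood apart from all others. The log2-fold change was 1.36 ± 0.27 with compound 4 (edgeR adjusted p = 0.017), 0.24 ± 0.28 with compound 5 (0.59) and 0.05 ± 0.29 with compound 6 (0.95).

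MFNG went from 49.3 and 47.7 CPM in DMSO to 70.8 and 69.6 with compound 4, by 0.53 ± 0.10 (edgeR adjusted p = 0.015). It was at 55.1 and 52.2 CPM with compound 5 and 58.8 and 58.2 with compound 6, also above both controls, with log2-fold changes of 0.14 ± 0.10 and 0.27 ± 0.10 that did not pass. Both calls were lost without DMSO replicate 1 (adjusted p = 0.089 for LFNG and 0.077 for MFNG), DMSO replicate 2 (0.10 and 0.15) and compound 4 replicate 2 (0.12 and 0.078). POGLUT1, which adds glucose to the receptor, had the lowest mean change of the 6 enzymes, at −0.15, −0.46 and −0.20.

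Of the genes for receptor turnover, ITCH, a ubiquitin ligase that acts on Notch among other proteins, rose with compound 5, and DTX4, a Deltex family ubiquitin ligase, fell with compound 4. ITCH went from 108 and 97.7 CPM in DMSO to 178 and 137 with compound 5, by 0.61 ± 0.16 (edgeR adjusted p = 0.045), and was at 110 and 144 CPM with compound 4 and 133 and 138 with compound 6. Without compound 5 replicate 1 its log2-fold change was 0.40 and the adjusted p was 0.25, and the call was also lost without either DMSO or either compound 6 library (adjusted p between 0.067 and 0.24) and in the fit of only the 4 samples compared (0.056).

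DTX4 went from 10.8 and 9.30 CPM in DMSO to 5.91 and 4.56 with compound 4, 6.01 and 5.86 with compound 5, and 6.77 and 5.21 with compound 6. All treated libraries were below the controls. The log2-fold changes were −0.94 ± 0.22 (edgeR adjusted p = 0.029), −0.75 ± 0.21 (0.059, or 0.043 with the replicate block) and −0.74 ± 0.22 (0.13). The compound 4 call was lost with DESeq2 (0.060) and without DMSO replicate 1 (0.13), DMSO replicate 2 (0.14) or compound 4 replicate 2 (0.18). MPEG1, which overlaps DTX4 on the opposite strand, had 0 counts in every library.

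In the remaining roles 0 genes passed the threshold in any of the 3 comparisons with DMSO by edgeR with the filter on low counts. These roles included 6 coactivators (1 at an unadjusted p under 0.05, with compound 5), 11 corepressors (3, with compound 5), 2 ligand ubiquitin ligases (1 each with compounds 4 and 5) and 2 non-canonical ligands (0). Such a p was found for 3688, 3811 and 2490 of all 13400 genes tested with compounds 4, 5 and 6. Over the 3 compounds, CREBBP, a histone acetyltransferase, had the highest mean change among the coactivators, at 0.16, 0.45 and 0.21, and SNW1 the lowest, at −0.19, 0.03 and −0.12. Without the filter CREBBP passed with compound 5 (edgeR adjusted p = 0.014). Among the corepressors HDAC2 was lowest, at −0.13, −0.10 and −0.06. MIB2 and MIB1, ligases that act on the ligand, had changes of 0.34, 0.36 and 0.11 and of 0.25, −0.01 and 0.40. DLK1 and DLK2, which lack the DSL domain of the canonical ligands, had 0.35, −0.02 and 0.57 and −0.31, −0.21 and −0.66. NOTCH2NLA, the one tested copy of NOTCH2, had −0.80, −0.76 and 0.26 on 5 to 18 counts per library. Further listed genes that were not tested were RBPJL, MAML3, KAT2B, CTBP2, TLE2, FHL1, NEURL1, NEURL1B, DTX1, DNER, NOTCH2NLB, NOTCH2NLC and NOTCH2NLR, of which CTBP2 was at 0 to 3 counts.

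The compounds were also compared with each other, in 3 pairs, at their own IC50 and thus at similar but not identical concentrations. JAG1 was 0.53 ± 0.32 lower on the log2 scale with compound 4 than with compound 5, and 0.61 ± 0.32 lower with compound 6 than with compound 5. Between compounds 4 and 6 the difference was 0.08 ± 0.31, and it turned to −0.35 without compound 4 replicate 2. In none of the 3 pairs were the libraries of JAG1 apart.

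For HES1, compound 4 and compound 6, which differ in tert-butyl against cyclohexyl groups, were 0.28 apart on the log2 scale (95% interval −0.17 to 0.73, edgeR adjusted p = 0.82). Both compound 4 libraries were above both compound 6 libraries, as for 12 of the 52 list genes, while 5 were below. The share over all genes was not computed for this pair. Compound 4 minus compound 5, which differ in the bridge and the ring methyl groups, was −0.06 (95% interval −0.49 to 0.38, adjusted p = 0.91), and compound 6 minus compound 5 was −0.33 (95% interval −0.78 to 0.11, adjusted p = 0.40). The 3 intervals include 0, so no difference was detectable between the compounds. The bounds farthest from 0 were 0.73 for compound 4 minus 6, −0.49 for compound 4 minus 5 and −0.78 for compound 6 minus 5.

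The 95% intervals of the other 4 tested members also included 0 in all 3 pairs. For NOTCH1, the widest difference was compound 4 minus compound 5, at −0.46 ± 0.25 (edgeR adjusted p = 0.40). Of the 52 list genes, 0 passed in any pair by edgeR, with 5, 2 and 5 at an unadjusted p under 0.05 in compound 4 against 5, 4 against 6 and 6 against 5. Over all 13400 genes tested, 0.313%, 0% and 1.03% passed, and 2177, 945 and 2483 genes had an unadjusted p under 0.05. LFNG, which rose with compound 4, was 1.31 higher with compound 4 than with compound 6 (95% interval 0.71 to 1.91) and 1.12 higher than with compound 5 (0.54 to 1.69), but neither passed over all genes (adjusted p = 0.25 and 0.10). Each p-value was adjusted over the genes within a pair and not over the 3 pairs.

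The genes most like JAG1 in their pattern were searched among 12728 tested genes with a mean of at least 1 CPM, by Pearson's r of log2(CPM + 0.5) over the 8 samples. The 5 highest were SLC35F6 at 0.996, WASH7P at 0.994, and GARS1, DAGLA and VPS28 at 0.991. GARS1 encodes the glycyl-tRNA synthetase, DAGLA an enzyme that makes the endocannabinoid 2-arachidonoylglycerol and VPS28 a part of the ESCRT-I sorting complex, while WASH7P is a pseudogene with near-identical copies, so its count is uncertain. Their levels moved less than that of JAG1. SLC35F6 went from 36.1 and 33.9 CPM in DMSO to 47.8 and 55.3 with compound 4, 64.1 and 52.7 with compound 5, and 44.9 and 55.1 with compound 6. Like JAG1, it was higher on day 2 with compounds 4 and 6 and on day 1 with compound 5. In all, 535 genes had an r of at least 0.9, and only 1 of the 5 was also among the first 5 by Spearman's rho, so the order among them carries little. The samples share their treatments and libraries, and the values are given as a description.

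**Figure D4:**
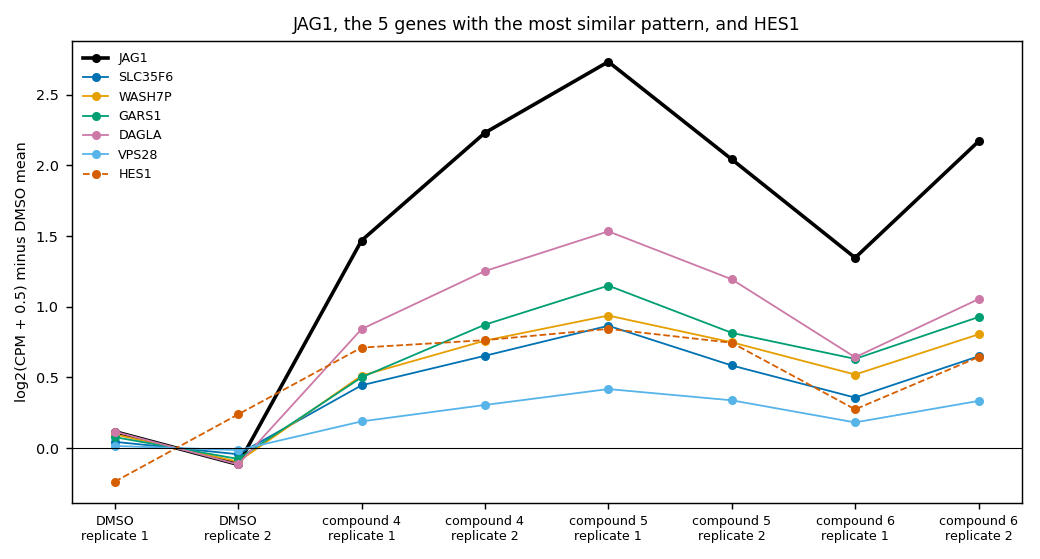
Log2(CPM + 0.5) minus the mean of the 2 DMSO libraries for JAG1, the 5 genes with the highest Pearson's r to it and HES1 (dashed), in each of the 8 libraries. The lines join the values of a gene and mark no order of the libraries. JAG1 and the 5 genes are highest in compound 5 replicate 1, and HES1 varies less than JAG1 among the treated libraries.

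Among the other 5 tested members, HES1 had the highest r to JAG1, 0.865, at rank 830 of the genes compared. NOTCH1 had 0.778, HEY1 0.516, RBPJ 0.271 and NOTCH2 −0.306. By Spearman's rho the values were 0.905 for HES1, 0.786 for NOTCH1, 0.762 for HEY1, 0.0714 for RBPJ and 0.119 for NOTCH2, so that of NOTCH2 changed its sign.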

How the data were processed

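RNA from 8 samples of CYP2C19-overexpressing HepG2 cells was sequenced from directional libraries. The authors estimated transcript abundance with Salmon 1.5.0 after FastQC 0.12.0, collapsed it to genes with tximeta, and deposited these estimated counts as whole numbers, not normalized (GRCh38; DESeq2 1.38.3 was their test, per the labels). Strand use in the counting is not given in the sources used here. The column names of replicate 1 of DMSO and of compound 4 hold the word merged but do not say what was merged.

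The deposited counts went through edgeR 4.0.16 in R 4.3.3, with TMM scaling, a filterByExpr minimum of 10 and the quasi-likelihood test on 13400 genes. A single model held all 8 samples and no block, the p-values were adjusted over all of these genes after Benjamini-Hochberg, and 0.05 was the threshold. The SE is the log2-fold change over the root of the F statistic, and intervals use the degrees of freedom of the fit. Totals of 9791659 to 17814595 limit the precision of low genes. The 8 genes, the list of 78, the markers and the motifs were chosen with earlier results of these data known. Named genes are the 8, listed genes past the threshold, the highest and lowest mean change per role, and the 5 most like JAG1. One gene that this rule takes is not reported here.

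The pairing of replicates comes from the day in the labels, and differences between replicates 2 and 1 correlated at −0.16 to 0.30 over the 6 pairs of groups. The alternatives were the replicate block, DESeq2 1.42.0 (Wald test), models of the 4 samples of each comparison alone, size factors of DESeq2 in edgeR, no filter, at least 10 counts in every sample, leaving out each library, and Spearman's correlation. The scripts were tested on simulated data. Python 3.11.15 with pandas 2.3.3 and matplotlib 3.10.9 made the tables and figures.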

Additional observations from a re-analysis of the deposited data

How the results depend on the processing

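With 2 samples per group, 1 library can decide a call. Of 1365 values of single genes under the alternatives, 1262 kept their direction and side of the threshold, 34 fell out of it, 28 came to pass it and 41 changed sign, and JAG1 was higher than DMSO under all of them. The causes of the following shifts were not tested. For genes past the threshold with compounds 4, 5 and 6 against DMSO, then 4 against 5, 4 against 6 and 6 against 5, the fit without a filter gave 2383, 2431, 1355, 750, 259 and 990. This fit tested 23080 genes. DESeq2 gave 518 for compound 6, then 194, 59 and 364 for the 3 pairs. The fit of only 4 samples gave 1023 for compound 6, 10 for 4 against 5 and 49 for 6 against 5. DESeq2's size factors gave 47 for compound 6, and at least 10 counts in every sample gave 198 for it, 65 for 4 against 5 and 5 for 4 against 6. The replicate block gave 128, 1 and 269 for the 3 pairs, against 42, 0 and 138 without it (945 genes of 4 against 6 had an unadjusted p under 0.05 by edgeR). Among the named genes it changed the calls of HES1 with compound 4 and of ADAM17 and DTX4 with compound 5 and no other. Leaving out 1 library gave 43 to 1681, 46 to 1814 and 2 to 432 genes with compounds 4, 5 and 6, and 9 to 25, 0 to 13 and 0 to 105 in the pairs. For the 52 Notch genes other than JAG1, compound 5 gave 1 with 4 samples only, against 847 of 13011 over all genes. It gave 9 without a filter, against 2431 of 23080. Compound 6 gave 1 with DESeq2 (518 of 13236 over all genes), 2 with 4 samples only (1023 of 12998), 2 without a filter (1355 of 23080) and 1 with at least 10 counts in every sample (198 of 12091). Without a filter 4 against 5 gave 3 and 4 against 6 gave 1, and leaving out 1 library gave 0 to 5, 0 to 4 and 0 to 1 with compounds 4, 5 and 6. Without a filter HES1 and HES6 also passed with compound 4, and NOTCH1, CREBBP, FURIN and DTX4 with compound 5. In the same fit FURIN and DTX4 passed with compound 6, and LFNG in 4 against 5 and 4 against 6. HEY1 in 6 against 5 turned to −0.0022 with DESeq2 and −0.0032 without a filter. On leaving out 1 library, signs turned for HEY1 in 6 against 5 (−0.26 to 0.24) and with compound 4 (−0.70 to 0.38), JAG1 in 4 against 6 (−0.35 to 0.55), NOTCH1 with compound 4 (−0.21 to 0.58) and in 4 against 6 (−0.56 to 0.25), NOTCH2 with compound 5 (−0.42 to 0.10), and RBPJ with compound 5 (−0.061 to 0.36), compound 6 (−0.045 to 0.076) and in 6 against 5 (−0.34 to 0.071). The same held for LFNG with compound 6 (−0.27 to 0.30), ADAM10 with compounds 4 (−0.068 to 0.043), 5 (−0.091 to 0.066) and 6 (−0.099 to 0.13), APH1B with compounds 4 (−1.10 to 0.45) and 6 (−1.57 to 0.55), CREBBP with compound 4 (−0.17 to 0.41), DLK1 with compounds 4 (−0.066 to 0.68) and 5 (−0.28 to 0.16), HES6 with compound 5 (−0.68 to 0.029), MIB1 with compound 5 (−0.33 to 0.25), MIB2 with compound 6 (−0.0047 to 0.20), NOTCH2NLA with compound 6 (−0.094 to 0.55), POGLUT1 with compounds 4 (−0.34 to 0.068) and 6 (−0.39 to 0.022), PSEN2 with compounds 5 (−0.15 to 0.31) and 6 (−0.045 to 0.42), and SNW1 with compound 5 (−0.093 to 0.14). JAG2 (0 to 6 counts per library) and NOTCH3 (2 to 12) were too low to be tested at this depth.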
